A study of Arabidopsis thaliana x Arabidopsis arenosa with 4 samples.

Results

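The auxin response factors (ARFs) are transcription factors that bind auxin response elements in DNA and set how strongly target genes answer the hormone auxin. Their RNA was followed in siliques, the young fruits that enclose the seeds, of hybrids between Arabidopsis thaliana and Arabidopsis arenosa. The members were taken by gene code, for ARF1 to ARF8, ARF10 and ARF19. All 10 were listed in every hybrid, among 14687 genes listed in all 3 and 16610 listed in any. The libraries labelled C24XAa, LerXAa and ColXAa came from F1 interspecific hybrids whose A. thaliana parent was the ecotype C24, Ler or Col-0, each tetraploid (4x), as was the A. arenosa parent. They are called the C24, Ler and Col crosses here. The library Allo733 came from an allotetraploid line in generation F8, with Ler given as its ecotype. All siliques were collected 4 days after pollination, and the hybrids were made by emasculation and hand pollination. With 1 library in each of the 4 groups, differences between a pair of crosses lack a replicate check. The labels do not say which species was the seed parent.

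ARF5, ARF6, ARF7, ARF8 and ARF19 carry a glutamine-rich middle region and act mainly as activators, whereas ARF1 to ARF4 and ARF10 act mainly as repressors. At low auxin, Aux/IAA proteins bind activating ARFs and hold their targets silent. Auxin joins the TIR1/AFB receptors to Aux/IAA proteins, which are then degraded. In fruit and seed, ARF2 restrains cell division in the seed coat, and its mutants have large seeds. ARF8 holds back fruit growth until fertilisation and acts with ARF6 in flower maturation. ARF3 (ETT) patterns the gynoecium, the organ that becomes the silique, and ARF5 (MP) is needed for the embryo's axis and vascular tissue.

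Several members are cut by small RNAs, whose known targets give the groups used below, and the sites are shown. The microRNA miR167 targets ARF6 and ARF8, miR160 targets ARF10, and trans-acting small RNAs from the TAS3 transcript target ARF2, ARF3 and ARF4. The sequences come from the RefSeq copy of the A. thaliana genome assembly TAIR10.1. For each small RNA the site with the most Watson-Crick pairs was taken in the longest coding sequence of each member. In the microRNAs the seed (bases 2 to 8) is in capitals. In the sites capitals mark bases in a Watson-Crick pair with the small RNA, and G:U pairs stay in lower case. The paired bases counted below are those in Watson-Crick pairs. The TAS3 sequence is the stretch of 21 bases with the most pairs summed over ARF2, ARF3 and ARF4, and the exact ends of the small RNA were not looked up.
miR167a-5p: tGAAGCTGccagcatgatcta
ARF6 site: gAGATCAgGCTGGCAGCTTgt
ARF8 site: TAGATCAgGCTGGCAGCTTgt
miR160a-5p: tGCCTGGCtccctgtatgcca
ARF10 site: aGGaATACAGGGAGCCAGGCA
TAS3 stretch: tttcttgaccttgtaagaccc
ARF2 site: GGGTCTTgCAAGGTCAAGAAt
ARF3 site: GGGTCTTgCAAGGTCAAGAAA
ARF3 next site: aGGTCTTgCAAGGTCAAGAAA
ARF4 site: GGGTCTTgCAAGGTCAAGAAA

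All of these sites lay within 1 coding exon. The miR167 site paired at 17 of 21 bases in ARF6 (chr1:10686478-10686498, minus strand) and at 18 in ARF8 (chr5:14633841-14633861, plus strand). The miR160 site of ARF10 (chr2:12115741-12115761, plus strand) paired at 19. The TAS3 stretch paired at 19 bases in ARF2 (chr5:24913262-24913282, plus strand), at 20 in ARF4 (chr5:24309507-24309527, minus strand) and at 20 and 19 in the pair of sites of ARF3 (chr2:14325941-14325961 and chr2:14325821-14325841, minus strand). In the other members the best site for any of these small RNAs paired at 12 to 14 bases. For the TAS3 stretch this contrast is no finding, since it was picked for its pairs in ARF2, ARF3 and ARF4. The A. arenosa copies of these sites were not analysed here.

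RNA was measured as RPKM, the reads on a transcript scaled by its length and by the mapped reads of the library, for each transcript in total and for each allele. The summed total was 710281 RPKM for C24, 762595 for Ler and 754526 for Col, and the read depth is unknown. Of 8 fruit regulators 6 were listed in all crosses, with median totals of 32.1, 34.4 and 32.9 RPKM for C24, Ler and Col. Of 5 seed coat markers 2 were listed, all 5 pollen markers were, and of 7 endosperm and 3 embryo markers 0 were listed. No table listed a total below 2 RPKM. Because siliques are a mixture of tissues, fewer cells of a type and less RNA per cell cannot be told apart.

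The ARFs fell into a high and a low group, and 3 of the 5 activators were in the high group. The means over the 3 crosses were 36.5 ± 5.72 RPKM for ARF6, 32.4 ± 5.09 for ARF5, 30.8 ± 4.44 for ARF2 and 29.1 ± 4.60 for ARF8 (SD, n = 3 crosses). ARF3 followed with 15.6 ± 2.32 RPKM, ARF4 with 14.1 ± 3.09, ARF10 with 9.39 ± 1.57, ARF1 with 8.60 ± 0.69, ARF7 with 7.18 ± 0.65 and ARF19 with 5.93 ± 1.25 (SD, n = 3 crosses). By mean total ARF6 thus stood at percentile 80.5 of the 14687 genes listed in all 3 crosses, and ARF19 at percentile 19.4. Genes that were not listed are outside this ranking. The activators ARF7 and ARF19, which act together in lateral root formation, were the lowest members. Neighbours in this order overlapped in their ranges over the crosses for 6 of 9 pairs. The ranges did not overlap between ARF8 and ARF3 (lowest 24.7 against highest 17.3 RPKM), between ARF4 and ARF10 (11.7 against 10.6) or between ARF1 and ARF7 (7.83 against 7.81).

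**Figure D1:**
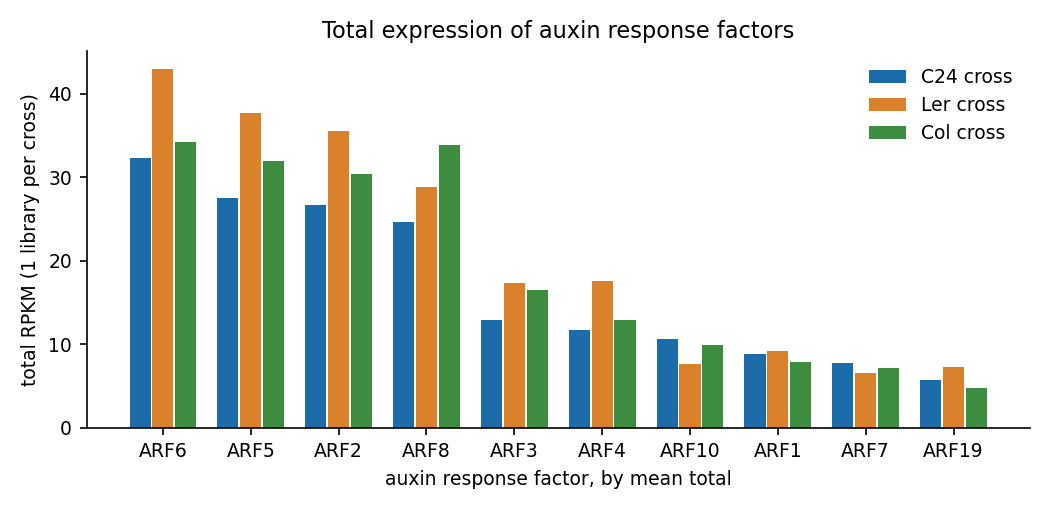
Total RPKM of each auxin response factor for C24, Ler and Col, 1 library per bar, ordered by the mean. ARF6, ARF5, ARF2 and ARF8 lie at 24.7 RPKM or above in every cross, and the other members at 17.5 or below.

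The total of each ARF stayed within 1.52-fold over the crosses before centring. Beyond 2-fold, after centring on the median gene, 0 of 10 members differed in any pair of crosses, where 8.81% of all genes did between the C24 and Ler crosses, 7.16% between the C24 and Col crosses and 5.95% between the Ler and Col crosses. For 10 genes a count of 0 is near those shares, so it is no result about the members. The ratio of the highest to the lowest total lay between 1.17 for ARF1 and 1.52 for ARF19. The highest total lay in the Ler cross for 7 members, and the lowest in the C24 cross for 6. The C24 cross lay 0.18 log2 units below the Ler cross for the median gene, so part of this order is shared by all genes. How many of all genes follow it was not counted, so these member counts are no result about the members.

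Among the activators, ARF6 (AT1G30330) had 32.2 RPKM for C24, 43.0 for Ler and 34.2 for Col. ARF5 (AT1G19850) had 27.5, 37.7 and 32.0 RPKM in the same order. Both were highest in the Ler cross and lowest in the C24 cross. ARF8 (AT5G37020), the regulator of fruit initiation, had 24.7, 28.9 and 33.9 RPKM and was the only activator with its highest total in the Col cross, where it ranked above ARF5 and ARF2. ARF7 (NPH4, AT5G20730), which mediates the bending of shoots to light, had 7.81, 6.52 and 7.21 RPKM. ARF19 (AT1G19220) had 5.75, 7.26 and 4.79 RPKM.

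Among the repressors, ARF2 (AT5G62000) had 26.6 RPKM for C24, 35.5 for Ler and 30.3 for Col. After centring, its log2 differences were -0.23 between the C24 and Ler crosses, -0.07 between the C24 and Col crosses and 0.18 between the Ler and Col crosses. The seed size regulator thus stayed within 1.33-fold over the crosses before centring. ARF3 (AT2G33860) had 12.9, 17.3 and 16.5 RPKM and ARF4 (AT5G60450) had 11.7, 17.5 and 12.9 RPKM in the order C24, Ler and Col. These partners in setting the lower side of leaves and the outer side of the gynoecium were both lowest in the C24 cross. ARF10 (AT2G28350), which acts with ARF16 in the root cap, had 10.6, 7.61 and 9.96 RPKM and was the lowest in the Ler cross. It was the 1 member past 1.5-fold after centring (log2 difference 0.66, C24 above Ler), a size that 25.2% of all genes passed in that pair, 21.6% between C24 and Col and 17.7% between Ler and Col. ARF1 (AT1G59750), which acts with ARF2 in flower organ ageing, had 8.82, 9.16 and 7.83 RPKM.

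Most allele RPKM of each ARF came from the A. thaliana allele. This was not particular to the ARFs, since the median gene had a like share in each cross. Siliques are a mixture of tissues, and the part of tissue and of read mapping in these shares was not tested. The A. arenosa share, its RPKM as a percentage of both alleles together, ranged from 1.03% for ARF3 in the Ler cross to 19.7% for ARF8 in the Col cross. The median share of the 10 members was 4.53%, 3.51% and 6.11% for C24, Ler and Col, beside 5.41%, 3.77% and 4.79% for all genes tested. Taken over the summed RPKM of the members, the share was 5.26%, 3.76% and 9.30%. The summed share weights abundant members more, and in the Col cross ARF5, ARF6 and ARF8 held 3.90, 2.64 and 6.66 of the 17.6 RPKM from A. arenosa.

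**Figure D2:**
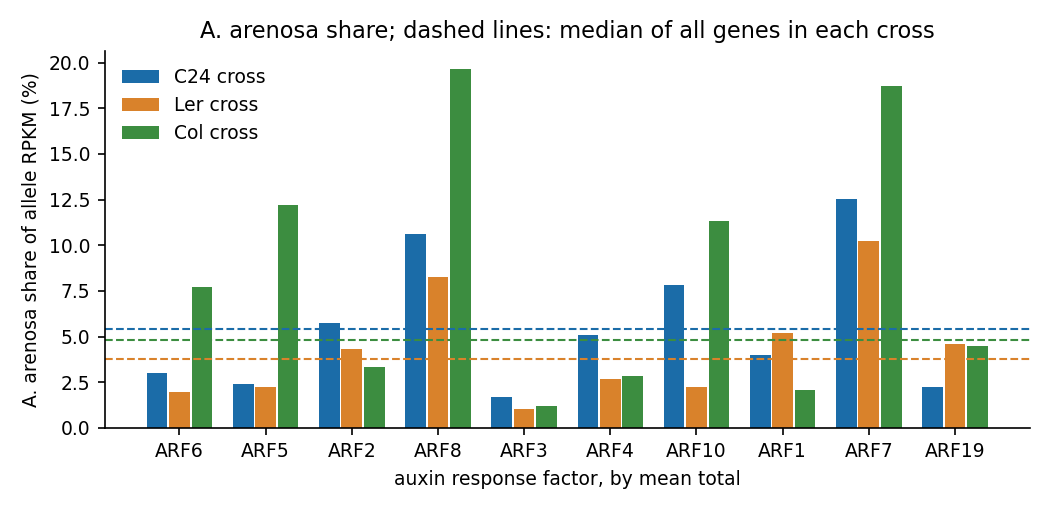
A. arenosa share of allele RPKM in percent for each auxin response factor and cross, 1 library per bar, with the median of all genes tested in each cross as a dashed line. ARF7 and ARF8 lie above the dashed lines in every cross and ARF3 below them, while ARF5, ARF6 and ARF10 lie above the line in the Col cross and have their highest shares there.

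Whether members departed from the typical gene was tested on the allelic ratio, log2 of the A. arenosa over the A. thaliana value, with each cross set to 0 at its median gene. The test ran over the 3 crosses with limma across all genes, and its error is the spread between them. By adjusted p, 1 of 10 members passed above the typical ratio and 0 passed below, beside 7.97% and 3.36% of all genes. These counts are near the shares of all genes and are no result about the members as a group. By unadjusted p in the same limma fit, 3 of 10 members had a value under 0.05, beside 34.6% of all genes, so this count is no result about the members. The median member lay at -0.24 log2 units and the median gene at -0.03.

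The member above the typical ratio was ARF7. Its A. arenosa share was 12.5% for C24, 10.2% for Ler and 18.7% for Col, above the typical gene in 3 of 3 crosses. It lay 1.55 ± 0.31 log2 units (SE) above the typical gene (limma, adjusted p = 0.0453). When limma was run without C24, without Ler and without Col, the adjusted p of ARF7 was 0.119, 0.185 and 0.0945, and no gene passed in those fits.

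ARF8 and ARF3 missed the threshold on opposite sides of the typical gene. ARF8 had shares of 10.6%, 8.29% and 19.7% for C24, Ler and Col, and lay 1.30 ± 0.36 log2 units above the typical gene (limma, adjusted p = 0.0735). With a pseudocount of 1 RPKM its value was 0.37 (limma, adjusted p = 0.255). ARF3 had 1.69%, 1.03% and 1.19%, the lowest share of any member in every cross. It lay at -1.58 ± 0.38 log2 units (limma, adjusted p = 0.0579) and below the typical gene in 3 of 3 crosses. Its A. arenosa RPKM was 0.219, 0.179 and 0.196 in the same order, so its ratio rests on low values. With a pseudocount of 1 RPKM it passed at -0.87 (limma, adjusted p = 0.0159). At that setting 3502 of 14660 genes passed below, in place of 493, so passing there sets ARF3 less apart.

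**Figure D3:**
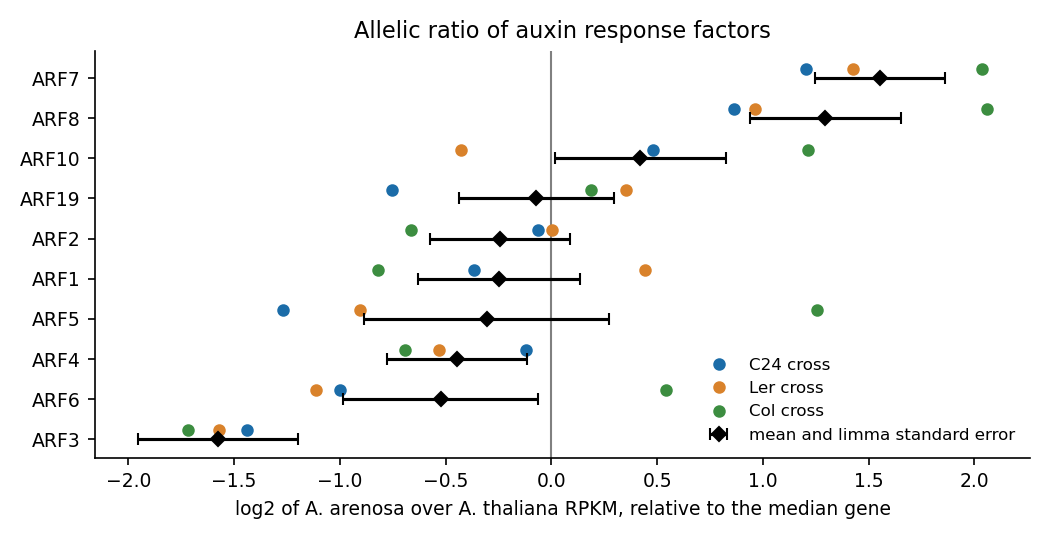
Allelic ratio (log2 of A. arenosa over A. thaliana RPKM) relative to the median gene, for each auxin response factor. Coloured points are the crosses (1 library each), and black diamonds with bars are the mean and standard error of the limma fit; ARF7 and ARF8 lie to the right of 0 in every cross, ARF3 and ARF4 to the left.

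ARF2 lay close to the typical gene. Its shares were 5.74%, 4.34% and 3.31% for C24, Ler and Col, from 1.53, 1.54 and 1.003 RPKM of the A. arenosa allele. Its centred ratio was -0.24 ± 0.33 log2 units (limma, adjusted p = 0.640). With a pseudocount of 1 RPKM the value was -0.80 (limma, adjusted p = 0.0236), where 3502 of 14660 genes passed below. For ARF2 the call thus depends on how low values are treated. ARF1 had shares of 3.96%, 5.18% and 2.06%, and ARF4 had 5.10%, 2.69% and 2.83%. Neither passed the limma test (adjusted p = 0.679 and 0.391), and ARF1, ARF2 and ARF4 each had a lower A. arenosa RPKM in the Col cross than in the other crosses. ARF19 had 2.24%, 4.57% and 4.51% with a centred ratio of -0.07 ± 0.37 (limma, adjusted p = 0.903).

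ARF5, ARF6, ARF7, ARF8 and ARF10 had their highest A. arenosa RPKM in the Col cross. In every member but ARF3 (1.22-fold against 1.35-fold) the A. arenosa allele varied more between crosses than the A. thaliana allele. The same count over all genes was not made, and the A. arenosa values are far lower, so this is no result about the members. ARF7 had 0.978, 0.668 and 1.35 RPKM from A. arenosa for C24, Ler and Col. ARF5 had 0.657 RPKM from A. arenosa for C24, 0.849 for Ler and 3.90 for Col. Its A. thaliana RPKM was 26.9, 36.8 and 28.1, so the share went from 2.39% and 2.25% to 12.2%. ARF6 had 0.961, 0.839 and 2.64 RPKM from A. arenosa and shares of 2.98%, 1.95% and 7.72%. Both lay below the typical gene in the C24 and Ler crosses and above it in the Col cross. Neither passed the limma test (adjusted p = 0.738 and 0.466), whose spread holds this difference. With a pseudocount of 1 RPKM ARF6 passed below the typical gene at -1.03 (limma, adjusted p = 0.0329), as did 3502 of 14660 genes.

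ARF8 had 2.62, 2.39 and 6.66 RPKM from A. arenosa for C24, Ler and Col, and 22.1, 26.5 and 27.2 RPKM from A. thaliana. Its total in the Col cross was 7.10 RPKM above the mean of the other crosses, of which 4.16 RPKM came from the A. arenosa allele and 2.94 from the A. thaliana allele. ARF10 had 0.830, 0.169 and 1.13 RPKM from A. arenosa, with shares of 7.83%, 2.22% and 11.3%. Its highest A. arenosa RPKM was 6.66 times the lowest, a ratio that rests on the 0.169 RPKM for Ler, while its A. thaliana RPKM varied 1.31-fold.

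**Figure D4:**
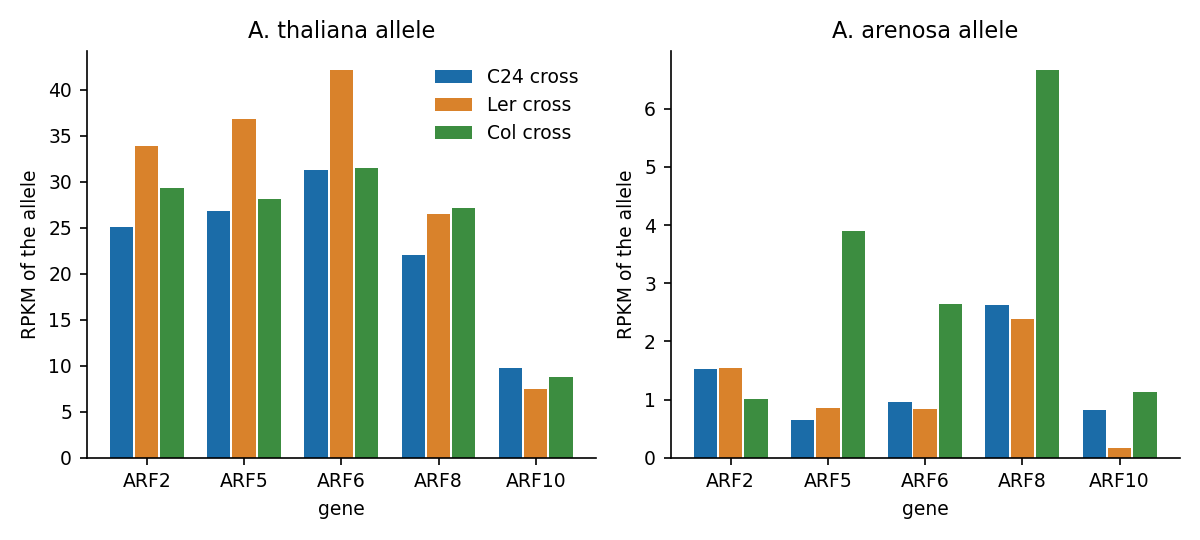
RPKM of the A. thaliana allele (left) and of the A. arenosa allele (right, on its own scale) for ARF2, ARF5, ARF6, ARF8 and ARF10 in the 3 crosses, 1 library per bar. In the Col cross the A. arenosa allele of ARF5 is at 3.90 and that of ARF8 at 6.66 RPKM, above the other crosses, while ARF2 is lowest there at 1.003 RPKM.

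With a rule of at least 1 log2 unit above both other crosses in centred ratio, chosen after the values were seen, the Col cross held 3 of 10 members (ARF5, ARF6 and ARF8), beside 10.5% of all genes. For C24 and Ler 0 members lay above both others, beside 7.11% and 5.73% of all genes. In the other direction 0 members lay below both others for C24, Ler or Col, beside 8.91%, 8.69% and 10.5% of all genes. With 2 log2 units only ARF5 remained in the Col cross, at 2.16 units above the higher of the others, beside 3.38% of all genes. With a pseudocount of 1 RPKM ARF5 also was the only one left, with ARF6 at 0.99 and ARF8 at 0.90. In the Col cross 5 of 10 members had their highest share (ARF5, ARF6, ARF7, ARF8 and ARF10), beside 39.4% of all genes. Of the 5 activators 4 were highest there, with a median share of 2.98%, 4.57% and 12.2% for C24, Ler and Col. Of the 5 repressors 1 was, with 5.10%, 2.69% and 2.83%. Of the 4 measured ARFs outside these 10, 3 were highest there too. A difference between activators and repressors was not tested.

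Lists of fruit, seed coat and pollen markers also had their highest median A. arenosa share in the Col cross. So did the lists of other ARFs, Aux/IAA, GH3 and transport genes described below, but not those of receptors, synthesis or small RNA genes. For the 6 measured fruit regulators the median was 3.02% for C24, 4.21% for Ler and 20.2% for Col. Of the 6, 5 were highest in the Col cross, beside 39.4% of all genes. The exception was AG, which specifies carpels, with 1.27%, 12.1% and 10.3%. Shares ran from 0.210% to 7.25% in the C24 cross, from 0.000500% to 12.1% in the Ler cross and from 8.27% to 36.5% in the Col cross. STK, which specifies ovule identity, had 7.25%, 4.56% and 36.5%, and FUL, which builds the fruit valve, had 3.42%, 5.51% and 29.7%. SHP1, which acts at the valve margin, had 4.26%, 3.86% and 34.3%. The seed coat regulator TTG2 had A. arenosa RPKM near 0 or at 0 in the C24 and Ler crosses and a share of 33.0% in the Col cross. The other seed coat regulator listed, TT8, had 26.5%, 31.4% and 68.1%. Limma called 1 of these 2 genes as above typical, beside 7.97% of all genes. The 5 pollen markers had median shares of 75.0%, 72.2% and 81.9% and summed totals of 26.2, 42.0 and 42.4 RPKM for C24, Ler and Col. Limma called 3 of 5 as above typical (VGD1, VGDH1 and HA8) and 0 below, beside 7.97% and 3.36% of all genes. In the Col cross 5 of 5 had their highest share, beside 39.4% of all genes. Of the fruit list limma called 0, with 0 at an unadjusted p under 0.05. The part of these tissues in the ARF values was not tested. The allele table of the Col cross also repeated its header on 4 lines and listed 41 transcripts whose A. thaliana and A. arenosa values were 0, none of them a member.

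The members were also described by small RNA, with no test of a difference between the groups. ARF2, ARF3 and ARF4, which carry TAS3 sites, had median shares of 5.10%, 2.69% and 2.83% for C24, Ler and Col, and 0 of 3 were highest in the Col cross. ARF6 and ARF8, which carry the miR167 site, had medians of 6.80%, 5.12% and 13.7%, and 2 of 2 were highest there. ARF10, with the miR160 site, was highest there too. ARF1, ARF5, ARF7 and ARF19, with none of these sites, had medians of 3.18%, 4.87% and 8.35%, and 2 of 4 were highest there. ARF5, of this last group, had the widest difference between the Col cross and the others. The TAS3 transcript itself was listed at 5.16, 5.76 and 4.71 RPKM, with A. arenosa RPKM near 0 or at 0 in the C24 and Col crosses and a share of 0.363% in the Ler cross.

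Of 10 genes of small RNA production that act on ARFs, limma called 1 above the typical allelic ratio and 0 below. Of all genes 7.97% and 3.36% were called, so these counts are no result about the list. The gene called was HYL1, a partner of DCL1 in microRNA processing, with shares of 49.7%, 41.8% and 10.9% for C24, Ler and Col. Its centred ratio was 2.98 ± 0.65 (limma, adjusted p = 0.0495). AGO7, which binds miR390 to start TAS3 processing, had 14.5%, 18.2% and 0.344% (limma, adjusted p = 0.430). Both were lowest in the Col cross, where the share of AGO7 rests on 0.015 RPKM from A. arenosa. SGS3, which stabilises the cut TAS3 transcript, had a total of 31.0 RPKM for C24, 34.7 for Ler and 13.1 for Col. The whole list had median shares of 4.94%, 4.05% and 4.22%, and 2 of 10 genes were highest in the Col cross.

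Several transcripts of a member had like values where they were listed. The 10 members had 18 listed transcripts, with 5 members having more than 1. Within a gene and cross the highest total was 1.05 to 1.28 times the lowest, and A. arenosa shares differed by at most 1.42 percentage points. The transcripts of a gene share most of their sequence, so these values are not independent. One transcript per gene is given here, AT5G62000.2 for ARF2 and AT5G37020.1 for ARF8.

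Of 12 other ARF genes 4 were measured, and the rest were not listed. ARF16 and ARF17, the other targets of miR160, had totals of 22.0, 19.1 and 21.7 RPKM and of 13.8, 12.4 and 12.6 RPKM for C24, Ler and Col. Both lay above ARF10 in every cross. ARF18 had 9.17, 12.7 and 7.98 RPKM, and ARF9 had 2.40, 4.92 and 5.84 RPKM. The 4 genes had median A. arenosa shares of 1.22%, 2.15% and 3.79%. Limma called 0 of the 4 in either direction, and 0 had an unadjusted p under 0.05.

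The auxin receptors had low A. arenosa shares. All 6 were measured, with medians of 1.32%, 2.69% and 1.71% for C24, Ler and Col and a median centred ratio of -1.50. Limma called 0 of 6, with 4 at an unadjusted p under 0.05, beside 34.6% of all genes. TIR1 had totals of 27.2, 38.9 and 41.4 RPKM with shares of 3.04%, 3.23% and 0.700%, and AFB1 had 49.9, 59.2 and 62.9 RPKM with 1.02%, 0.798% and 3.23%. AFB4 was the exception, with the lowest totals (2.99, 4.73 and 4.88 RPKM) and the highest shares (5.32%, 7.13% and 8.82%).

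Of 29 Aux/IAA genes 20 were measured in all crosses, with median shares of 2.39%, 1.37% and 2.55%. By unadjusted p in the limma fit, 8 of 20 were under 0.05, near the 34.6% of all genes. By adjusted p limma called 0 above and 3 below the typical gene, beside 7.97% and 3.36% of all genes. The 3 were IAA26 (-2.49 ± 0.46, limma, adjusted p = 0.0412), IAA28 (-2.07 ± 0.43, limma, adjusted p = 0.0467) and IAA1 (-2.003 ± 0.42, limma, adjusted p = 0.0469). In each the A. arenosa RPKM was at or near 0 in at least 1 cross, where the pseudocount sets the ratio. The widest difference in total was that of IAA17 (AXR3), with 66.5, 19.9 and 91.4 RPKM for C24, Ler and Col. Its highest total was 4.60 times its lowest, where the widest range of a member was 1.52-fold.

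Among genes that answer auxin, GH3 enzymes join the hormone to amino acids and are induced by it. GH3.3 had 12.6 RPKM for C24, 33.1 for Ler and 34.3 for Col, a 2.73-fold range, and GH3.2 had 18.4 for Ler and 7.37 for Col and was not listed in the C24 cross. GH3.5 had 27.4, 33.4 and 39.5 RPKM, and GH3.6 had 7.21, 12.4 and 7.60. Of 7 GH3 genes 3 were measured in all crosses, with median shares of 2.83%, 3.14% and 4.35%, and limma called 0, with 2 at an unadjusted p under 0.05. Of 8 synthesis genes 2 were measured in all crosses, with median shares of 3.48%, 0.231% and 0.216%; limma called 0, with 1 at an unadjusted p under 0.05. The synthesis gene YUC6 had 9.42, 6.27 and 12.4 RPKM and TAR2 had 4.56, 4.96 and 2.37, highest in different crosses. All 10 transport genes were measured, with median shares of 6.81%, 3.91% and 7.17%, and limma called 0, with 3 of 10 at an unadjusted p under 0.05. The GH3, synthesis and transport counts stand beside 34.6% of all genes and are no result about these lists. The uptake carrier LAX2 had totals of 6.58, 8.64 and 13.5 RPKM and shares of 25.1%, 2.80% and 6.56%. Of the exporters, PIN4 had 3.85, 6.96 and 4.57 RPKM and PIN7 had 7.89, 13.4 and 9.64, both highest in the Ler cross, and ABCB19 had 60.6, 90.7 and 94.4.

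**Figure D5:**
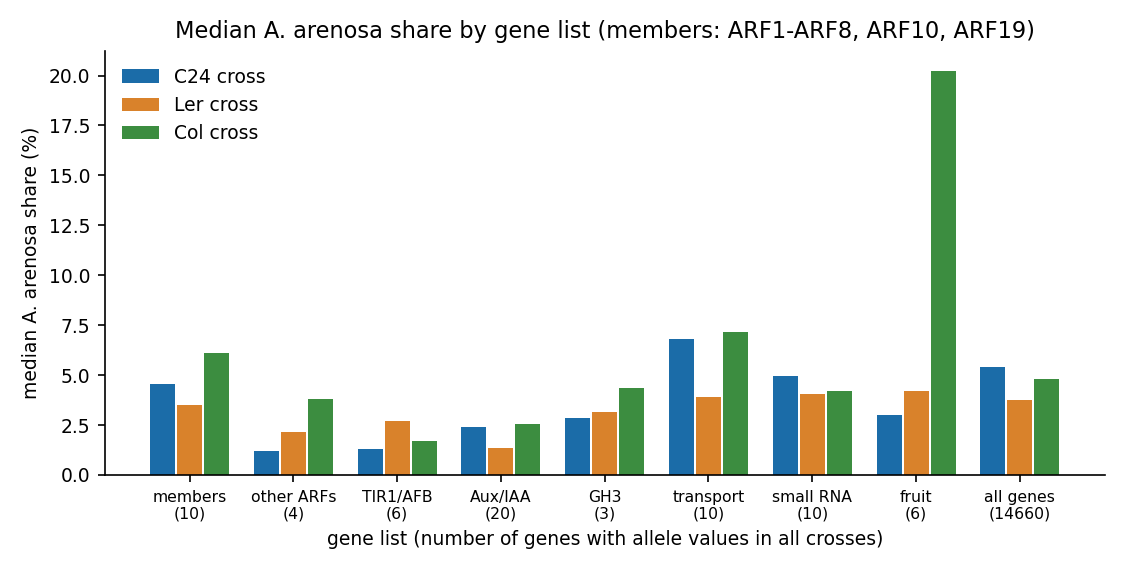
Median A. arenosa share in percent of the auxin response factors, of other auxin gene lists, of fruit regulators and of all genes tested, by cross; the number of genes with allele values in all crosses is under each name. The fruit list reaches 20.2% in the Col cross, and the receptor list stays at or below 2.69% in every cross.

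Against the allotetraploid, the deposited tables listed selected transcripts of each cross beside Allo733, and 0 of the 10 ARFs were among them. Of all genes with allele values 8.54%, 5.08% and 5.07% were listed for C24, Ler and Col, so the absence of 10 genes is no result about the ARFs. These tables held 1512, 947 and 887 transcripts for the C24, Ler and Col crosses, of which 62.2%, 58.6% and 60.2% differed at least 2-fold. The smallest listed differences were 0.15, 0.05 and 0.03 log2 units, so the selection was not by fold alone. Other auxin genes were listed, with 1 library per group and the same Allo733 library in each table. IAA17 had 66.5 RPKM for C24 and 91.4 for Col against 20.4 in Allo733. GH3.3 had 33.1 RPKM for Ler and 34.3 for Col against 5.40, and GH3.2 had 18.4 in the Ler cross against 3.31. Lower than Allo733 were SGS3 with 13.1 RPKM in the Col cross against 37.7, AGO1 with 38.0 and 37.1 in the Ler and Col crosses against 64.6, and the auxin exporter ABCB19 with 60.6 in the C24 cross against 103.9. IAA9, a repressor of fruit set in tomato, had 149.8 and 163.2 RPKM in the Ler and Col crosses against 203.8.

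For ARF2 and ARF8 the genes nearest in expression were found by distance over 6 values, the log2 RPKM of each allele in 3 crosses. For ARF2 they were AT1G77840 (distance 0.43), STT3B (0.45), a subunit gene of protein glycosylation, and Hop1 (0.45), where the median gene lay at 4.35. For ARF8 they were RABA1c (0.53), a small GTPase gene, CDF3 (0.54), a DOF transcription factor gene, and AT5G45950 (0.61), where the median gene lay at 5.53. RABA1c had A. arenosa shares of 12.0%, 11.2% and 26.0% for C24, Ler and Col, CDF3 had 8.76%, 9.71% and 21.8%, and AT5G45950 had 13.7%, 8.88% and 13.1%. These genes were picked on the same allele values, so their closeness is not a separate finding.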

How the data were processed

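Poly(A) RNA of siliques was sequenced with an Illumina kit, per the labels' protocols, 1 library per group. The authors deposited RPKM per transcript in total and per allele, per the file headers. The submitters' processing notes name the build TAIR 9; the aligner and the way reads were split between alleles were not given in the sources used here. In the tables, the T allele was taken for A. thaliana and the A allele for A. arenosa. Reads of A. arenosa may map less well to this reference, which would make its shares too low, and RPKM depends on the other transcripts of its library. Allele values reached down to 2.15e-06 RPKM without steps of single reads, so the depth and counting error are unknown.

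Per gene, 1 transcript was used: that present in the most crosses, ties going to the larger mean total. Printed folds of highest over lowest RPKM used no pseudocount. Allelic ratios and differences of totals between crosses, both as log2, used 0.1 RPKM as pseudocount, which shrinks those of low genes before centring. A minimum total of 1 RPKM was set for the allelic ratios. They were centred on the median gene and fitted with limma 3.58.1 in R 4.3.3 (intercept only, mean-variance trend, Benjamini-Hochberg over 14660 genes, threshold 0.05); the spread is that between the 3 crosses, ecotype and library together. Totals were compared by size, 2-fold after centring. Alternatives were a pseudocount of 1 RPKM, minimum totals of 5 RPKM and none, no centring, all transcripts, each cross left out, and 1.5-fold and 4-fold rules. The members and lists were chosen with earlier results of these data known. All members are named, and up to 4 genes per list, first those called by limma, then those with the widest range in total; AGO1, IAA9 and TAS3 are outside this rule and were named after their values were seen. For ARF2 and ARF8 the 3 nearest genes are named too. Names came from TAIR10.1, which matched 16522 of 16610 codes; coordinates are those of sites matched in that genome. Python 3.11.15, numpy 2.4.6, pandas 2.3.3 and matplotlib 3.10.9 were used.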

Additional observations from a re-analysis of the deposited data

Results flagged for a closer look

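For 6 members the allelic ratio, relative to the typical gene of each cross, lay above 0 in one cross and below it in another. The share of all genes with such a change of sign was not counted, so this count is no result about the members. With 1 library per cross the differences between crosses were not tested. ARF5 had the widest, 2.52 log2 units between the Col cross (1.26) and the C24 cross (-1.27). ARF6 differed by 1.66 between the Col and Ler crosses (0.54 and -1.11), and ARF10 by 1.64 between the same crosses (1.21 and -0.43). ARF1 differed by 1.26 in the opposite direction, with 0.44 for Ler and -0.82 for Col. ARF19 differed by 1.11 between the Ler and C24 crosses (0.35 and -0.75). ARF2 differed by 0.67 between the Ler and Col crosses, with 0.0026 and -0.66, so its sign in the Ler cross rests on a value near 0.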

How the results depend on the processing

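No paired analysis was possible because each group had 1 library. With a pseudocount of 1 RPKM limma called 3 members below the typical ratio in place of 0, and 3610 genes above and 3502 below in place of 1168 and 493; ARF1 turned to 0.0802 and ARF19 to 0.45. Without centring, which asks about equal alleles, 0 members lay above and 10 below, with 6 genes above and 14463 below; ARF7 turned to -2.56, ARF8 to -2.82 and ARF10 to -3.69. With any one cross left out limma called 0 members and 0 genes in both directions (from 0 to 0), with 3524 to 4583 genes at an unadjusted p under 0.05. Over these fits ARF1 ranged from -0.60 to 0.0276, ARF5 from -1.10 to 0.15, ARF19 from -0.29 to 0.24 and ARF7 from 1.30 to 1.70. In the Col cross the share of summed RPKM of the members was 9.30%, where their median share was 6.11%. Members with the Col cross above both others in allelic ratio numbered 1 at 2 log2 units and 1 with a pseudocount of 1 RPKM. At 1.5-fold 1 member differed in total between crosses. The causes were not tested. A minimum total of 5 RPKM (which left out ARF19) and all listed transcripts gave counts of called members of 1 above and 0 below. Dropping the minimum of 1 RPKM could change nothing, since no total lay under 2 RPKM.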
